A study of Mus musculus with 16 samples.

Results

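Tnmd, Fmod, Chad, Comp, Scx, Mkx, Thbs4, Cilp2, Prg4 and Kera are genes known from tendon and cartilage, and their RNA was measured in the gastrocnemius, the large calf muscle, of 16 male BALB/c mice. These 10 genes were chosen by their levels in the 4 groups in earlier results of the same data, so the group differences below are a description of them. All 10 of 35415 genes in the tables were found, and all 10 were among the 14749 genes with enough counts to be tested.

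The mice were 8 weeks old when bought, were wild type, and fell into 4 groups with 4 sequenced mice each. C denotes untrained mice without a tumor, E trained mice without a tumor, T untrained mice with a tumor, and TE mice with both a tumor and training. T and TE mice received CT26 cells, a BALB/c colon carcinoma line, under the skin of the left hind limb, and C and E mice received saline at this site. E and TE mice ran on a treadmill at 14 m/min for 60 min a day on 6 days a week for 4 weeks from the day after the injection, while C and T mice stood on a treadmill that did not move. The leg from which the muscle was taken is not given, so that the distance of the sample from a tumor is unknown. Each library comes from 1 mouse, and mice are named by group and replicate number (E2 is replicate 2 of the E group).

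Tendon cells lie in parallel rows between collagen fibrils and are made under the control of the transcription factors Scx and Mkx. Their matrix is mainly type I collagen, and small leucine-rich proteins and thrombospondins on the fibrils govern how thick the fibrils become and how they are joined. Where tendon is pressed against bone, its cells also make molecules typical of cartilage. The gastrocnemius ends in the Achilles tendon and holds sheets of tendon-like tissue inside the muscle, so a piece of the muscle can carry more or less of this tissue. In bulk RNA, more or fewer cells of a type and more or less RNA per cell cannot be told apart.

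The 10 genes lie on 8 chromosomes (GRCm39, GENCODE vM39). Some have relatives nearby. Fmod (chr1:133964992-133976015, plus strand) lies 107020 bases from Prelp, and Kera (chr10:97442728-97449554, plus strand) lies in the cluster of Lum, Dcn and Epyc, 34150 bases from Lum. Comp (chr8:70826192-70834716, plus strand) and Cilp2 (chr8:70333018-70340337, minus strand) are 485854 bases apart. Tnmd is on chrX:132751720-132766326 and Chad on chr11:94455696-94459953, both on the plus strand. Scx lies on chr15:76341563-76344281 on the plus strand, and Thbs4 (chr13:92888095-92931501) and Prg4 (chr1:150325163-150342009) lie on the minus strand.

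Scx protein binds E-boxes (CANNTG), and the 250 bases before the annotated start are shown for Tnmd, Fmod and Chad, the 3 members called in E vs C, and for Scx itself. Sequences run 5′ to 3′ along each gene's own strand (plus for all 4), and capitals mark each E-box.
Tnmd (chrX:132751470-132751719): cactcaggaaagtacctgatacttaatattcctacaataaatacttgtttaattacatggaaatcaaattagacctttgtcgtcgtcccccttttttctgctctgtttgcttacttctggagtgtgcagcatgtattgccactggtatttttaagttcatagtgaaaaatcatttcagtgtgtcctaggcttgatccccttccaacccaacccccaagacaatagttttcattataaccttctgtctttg
Fmod (chr1:133964742-133964991): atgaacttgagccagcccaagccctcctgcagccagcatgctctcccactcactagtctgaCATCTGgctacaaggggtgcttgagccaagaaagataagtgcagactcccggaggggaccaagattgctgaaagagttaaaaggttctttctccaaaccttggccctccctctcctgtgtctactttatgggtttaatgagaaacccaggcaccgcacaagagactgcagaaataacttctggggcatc
Chad (chr11:94455446-94455695): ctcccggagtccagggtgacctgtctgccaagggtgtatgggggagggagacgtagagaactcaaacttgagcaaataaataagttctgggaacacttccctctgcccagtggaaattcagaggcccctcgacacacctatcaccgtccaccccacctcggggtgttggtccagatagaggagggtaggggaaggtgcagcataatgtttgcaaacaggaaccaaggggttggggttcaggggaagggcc
Scx (chr15:76341313-76341562): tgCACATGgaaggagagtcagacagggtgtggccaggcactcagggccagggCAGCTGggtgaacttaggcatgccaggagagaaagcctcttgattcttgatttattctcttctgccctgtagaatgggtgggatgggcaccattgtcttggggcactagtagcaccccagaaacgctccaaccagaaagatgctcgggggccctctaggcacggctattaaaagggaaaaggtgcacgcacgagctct
The windows of Tnmd and Chad hold 0 E-boxes, that of Fmod 1 and that of Scx 2. E-boxes were searched in 9 members (Mkx was not searched), and 7 of the 9 windows held at least 1, against 64.9% of 21228 such windows over all genes. TATAAA stood in 0 of the 9 windows and in 11.9% of all windows. CAGACA, letters that SMAD proteins bind, stood in 3 of the 9 windows (Chad, Scx and Thbs4) and in 15.6% of all windows. All motifs were searched on both strands, and a match is only a match of letters.

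Library totals ranged from 35628211 to 37635741 counts, and 3 counts in a library correspond to 0.0797 to 0.0842 CPM, the count per 1000000 counts of the library. Markers of fast myofibers, the main cells of this muscle, were abundant and summed to between 143859 and 169344 CPM in the 16 libraries. Genes of red blood cells and neutrophils were higher in tumor-bearing mice (4 and 5 of the listed genes were called in T vs C, and 5 red blood cell genes in TE vs E), and TE4 stood apart with a sum of 156 CPM of lymph node genes, where the other groups reached at most 57.8. Levels between mice are given as CPM scaled by TMM, which corrects for differences in library composition, and levels between genes as FPKM, which also divides by gene length. A gene is said to be called where its adjusted p-value in edgeR was under 0.05. The p-values measure the spread between the 4 mice of a group, estimated over all 16 libraries together. The spread of the T and TE mice thus also enters the p-values of E vs C.

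Thbs4 had the highest RNA level of the members in all 4 groups, with 19.1 ± 2.23 FPKM in C and 30.4 ± 7.76 FPKM in E (mean ± SD, n = 4). Fmod was second in each group, at 5.61 ± 1.41 FPKM in C and 22.8 ± 5.95 FPKM in E. Thbs4 was above Fmod, and Fmod above Prg4, in 16 of 16 mice. Next came Prg4, Tnmd, Scx and Kera, and the order of Tnmd and Scx was not fixed, with Tnmd above Scx in 7 of 16 mice. Chad and Comp were equally hard to order (Chad above Comp in 9 of 16 mice). Cilp2 was below Comp in 14 of 16 mice, although in C its mean (0.253 FPKM) was above that of Chad (0.225 FPKM), and Mkx had the lowest mean in each group, with 0.0692 ± 0.0410 FPKM in C and 0.163 ± 0.0526 FPKM in E. The order shifted with training in mice without a tumor. Chad was 9th of 10 in C and 6th in E, Tnmd 5th and 3rd, and Scx 4th and 7th.

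The members also varied widely between mice of one group. The SD within groups on the log2 CPM scale had a median of 0.58 over the 10 genes and 0.19 over all genes tested. Cilp2 (0.80), Chad (0.69), Mkx (0.68) and Prg4 (0.67) were the most variable, each above at least 90.0% of the tested genes. Thbs4 (0.27) was the most even.

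**Figure D1:**
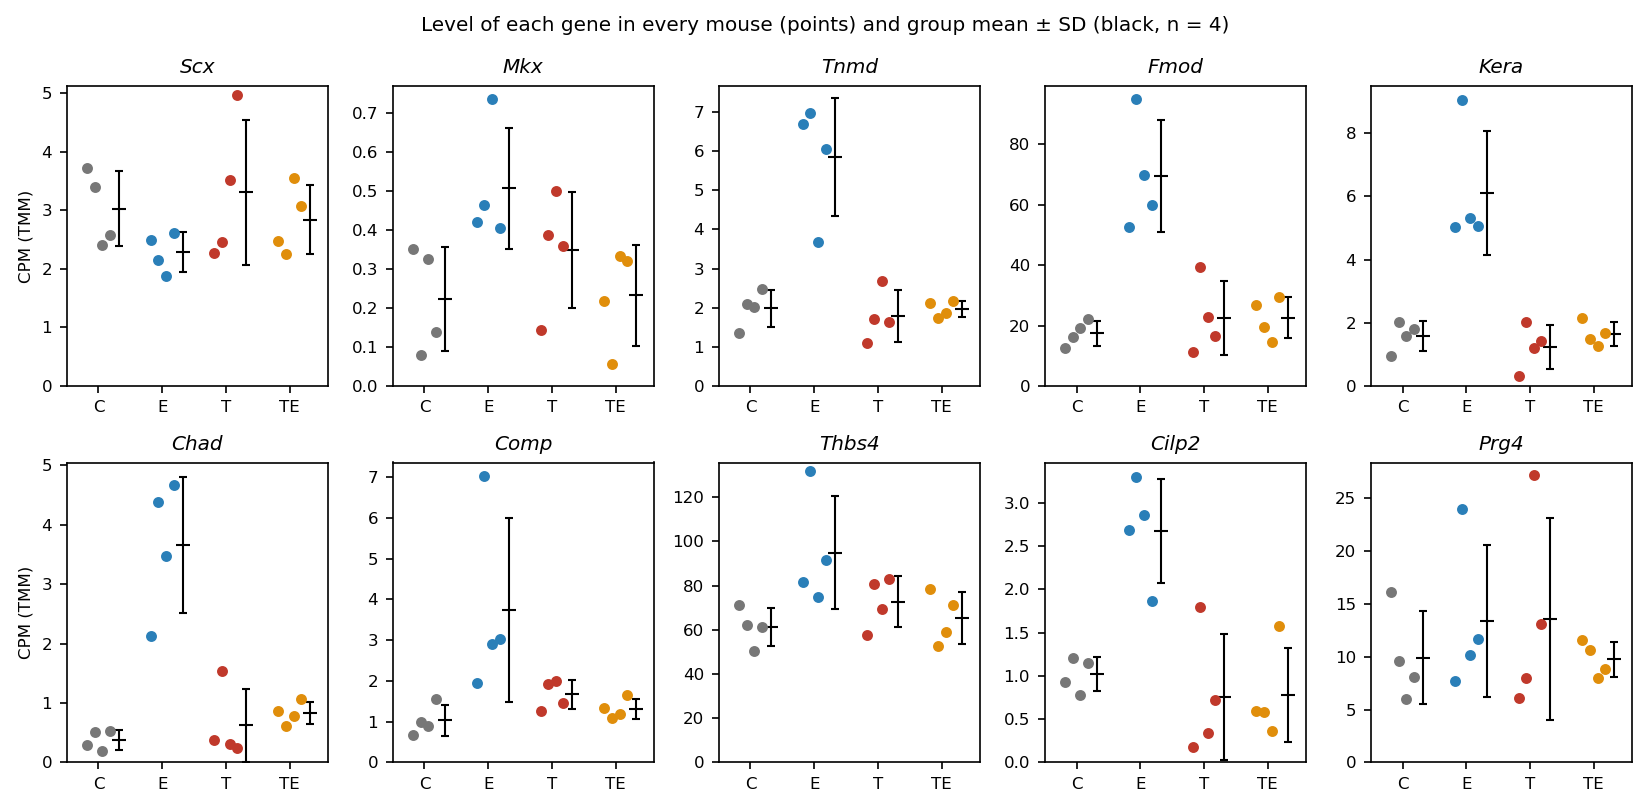
Level of each of the 10 genes in every mouse, in TMM-scaled CPM on linear axes that start at 0, with 1 panel per gene and the C, E, T and TE groups on the x axis. Points are single mice, and the black bar and whiskers are the group mean ± SD (n = 4). For 8 of the 10 genes every E mouse lay above every C mouse.

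The first comparison asks what 4 weeks of running did to these genes in mice without a tumor. Fmod was 3.97-fold, Tnmd 2.94-fold and Chad 9.61-fold higher in E than in C, and these 3 members were called (edgeR, adjusted p = 0.0206, 0.0273 and 0.0206). Over all genes tested, 13 were called higher, which is 0.0881%, and 0 were called lower, so that this fit held few calls in E vs C. DESeq2 and edgeR on only the groups compared called more genes, as given at the end, and the edgeR fit without T3 called 127. Comp and Kera missed the threshold narrowly (adjusted p = 0.0515 for both, edgeR). DESeq2 called Comp, Kera and Thbs4 beside Tnmd, Fmod and Chad (adjusted p = 0.000172, 5.48e-05 and 0.0186 for the first named, DESeq2). The groups did not overlap for 8 of the 10 members, all higher in E, where 5.06% of all genes were higher and 4.02% lower without overlap. At an unadjusted p under 0.05 stood 8 members and 14.2% of all genes. The median log2 fold change of the 10 members was 1.47, against 0.0033 over all genes. As the members were picked with these values known, the counts describe them and support nothing further.

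Scx and Mkx are the transcription factors of the list, a basic helix-loop-helix protein that marks tendon progenitors and a homeobox protein needed for collagen production in tendon. Scx measured 3.73, 3.40, 2.40 and 2.58 CPM in the C mice and 2.495, 2.15, 1.87 and 2.62 CPM in the E mice. The ranges overlapped, and Scx was the only member with a lower mean in E (log2 fold change -0.41, 95% interval -0.92 to 0.11, adjusted p = 0.471, edgeR). Mkx measured 0.350, 0.0803, 0.324 and 0.137 CPM in C and 0.420, 0.464, 0.734 and 0.405 CPM in E. Each E mouse was above each C mouse, but Mkx rested on only 3 to 12 counts per library in C and 15 to 29 in E, and its log2 fold change of 1.18 ± 0.54 (SE) was not called (adjusted p = 0.338, edgeR). 

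Tnmd encodes tenomodulin, a membrane protein of mature tendon cells that is also made by fat cells. It measured 1.34, 2.09, 2.02 and 2.47 CPM in the C mice and 6.70, 6.98, 3.67 and 6.04 CPM in the E mice. The lowest E mouse, E3, was above the highest C mouse, and the log2 fold change was 1.56 ± 0.26 (SE). Of 8 fat cell genes, 7 were positive and 1 was negative in E vs C, with a median log2 fold change of 1.39. With edgeR 0 were called and 4 had an unadjusted p under 0.05. Of the 8, 5 (Adipoq, Cfd, Cidec, Plin1 and Retn) had log2 fold changes between 1.35 and 1.65, with adjusted p-values of 0.286 to 0.358 (edgeR). Adipoq, the fat cell hormone adiponectin, measured 9.01, 32.3, 18.8 and 5.24 CPM in E1 to E4 and 1.49, 8.97, 9.36 and 4.15 CPM in C1 to C4. The E and C mice overlapped for Adipoq and not for Tnmd. The part of fat cells in the Tnmd result was not tested.

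Fmod, Kera and Chad encode leucine-rich repeat proteins of the matrix. Fibromodulin, the product of Fmod, binds collagen I and helps to set the width of tendon fibrils. Fmod measured 12.4, 16.2, 19.0 and 22.2 CPM in C and 52.7, 95.1, 69.9 and 59.9 CPM in E, so that each E mouse was above the highest C mouse by more than the whole range of C. Its log2 fold change was 1.99 ± 0.31 (SE). Keratocan, the product of Kera, is a keratan sulfate proteoglycan best known from the cornea. Kera measured 0.933, 2.01, 1.59 and 1.81 CPM in C and 5.02, 9.06, 5.32 and 5.07 CPM in E, with no overlap (log2 fold change 1.94 ± 0.37, SE). E2 had the highest value, and without it the log2 fold change of Kera was 1.69.

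Chondroadherin, the product of Chad, is a cartilage protein through which cells attach to collagen. Chad measured 0.291, 0.509, 0.189 and 0.522 CPM in C, which are 7 to 19 counts per library, and 2.13, 4.39, 3.47 and 4.67 CPM in E, which are 81 to 173 counts. The groups were far apart, and the log2 fold change of 3.26 ± 0.51 (SE) was the largest of the members. Chad lies inside Acsf2, which is on the other strand and shares no exon with it, and Acsf2 itself did not follow Chad (144 to 241 counts in C and 175 to 247 in E, log2 fold change 0.05). Scx lies in the same way inside Bop1, which had 819 to 954 counts in C and 750 to 834 in E. It is not known whether the counting used strand, so reads of such pairs cannot be told apart. Prg4, Comp and Mkx share exons with other genes, so that reads over these exons are uncertain. Prg4 shares them with Tpr on the other strand, which had 3628 to 3965 counts in C and 3552 to 4961 in E and was higher than Prg4 in every mouse (210 to 1035 counts). The partner of Comp, Gm51533, had 0 to 3 counts in C and 0 in E, and of the partners of Mkx, Gm46633 had 0 counts in every library and Gm2350 was not in the tables used here.

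Comp and Thbs4 are thrombospondins. Comp, the cartilage oligomeric matrix protein, bridges collagen fibrils, and Thbs4 is known from tendon and from its junction with muscle. Comp measured 0.670, 0.991, 0.890 and 1.57 CPM in C and 1.94, 7.04, 2.91 and 3.02 CPM in E. The groups did not overlap, with a log2 fold change of 1.85 ± 0.36 (SE), but E2 lay far above the other E mice, and without it the value was 1.35. Thbs4 measured 71.4, 62.0, 50.6 and 61.3 CPM in C and 81.8, 132, 74.9 and 91.6 CPM in E. Here too E2 was highest, and the log2 fold change of 0.63 ± 0.17 (SE) was not called (adjusted p = 0.146, edgeR), although no mouse overlapped.

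Cilp2, a relative of the cartilage intermediate layer protein, measured 0.933, 1.21, 0.782 and 1.15 CPM in C and 2.68, 3.30, 2.86 and 1.86 CPM in E. The groups did not overlap, and the log2 fold change of 1.39 ± 0.52 (SE) was not called (adjusted p = 0.249, edgeR). Prg4 encodes lubricin, the lubricant of joint surfaces and tendon sheaths. Prg4 measured 16.1, 9.56, 5.96 and 8.08 CPM in C and 7.75, 23.9, 10.2 and 11.7 CPM in E. These ranges overlapped widely, and without E2 the log2 fold change of Prg4 went from 0.43 to -0.0062.

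**Figure D2:**
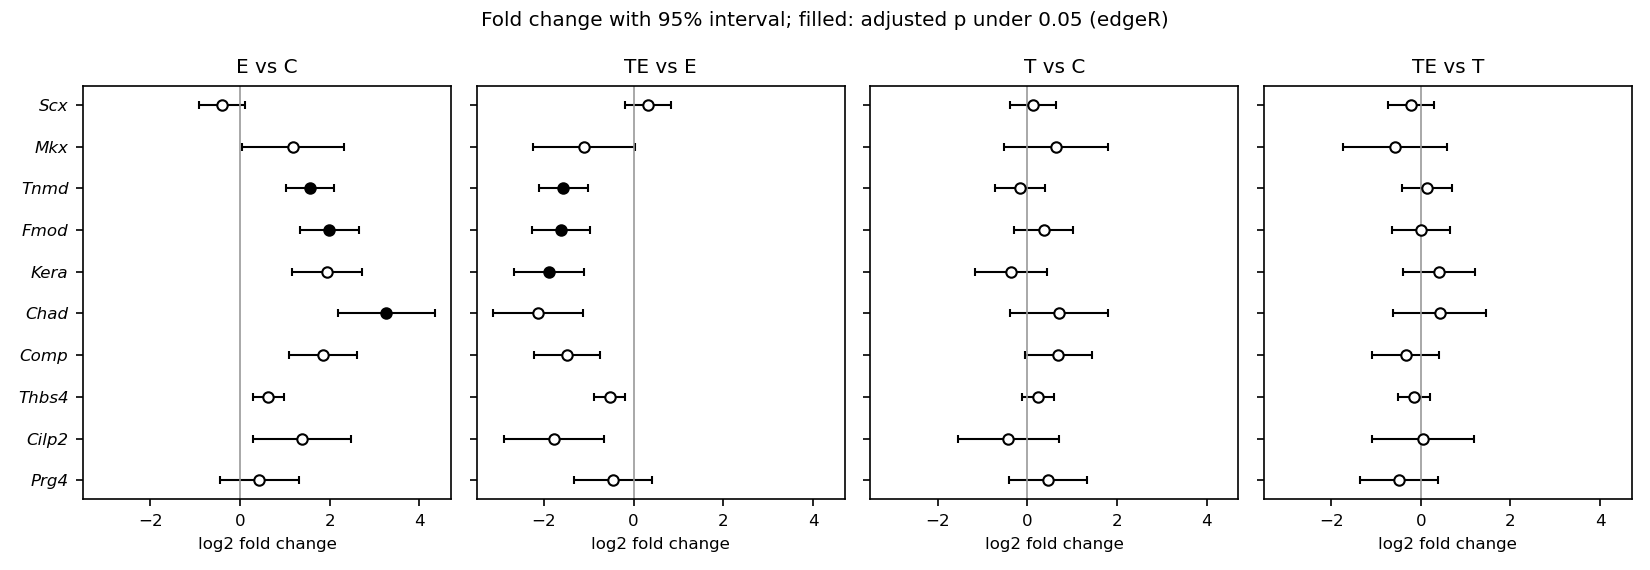
Log2 fold change of each of the 10 genes with its 95% interval (x axis) in E vs C, TE vs E, T vs C and TE vs T, from edgeR with 4 mice per group. Filled circles have an adjusted p under 0.05, which are Tnmd, Fmod and Chad in E vs C and Tnmd, Fmod and Kera in TE vs E.

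The calls in E vs C depended on single libraries. Of 16 fits that each left out 1 library, 10 kept at least 1 member called, and 6 had 0, namely those without E2, without E4 and without any 1 of the C mice. In all 16 the log2 fold changes of Tnmd, Fmod and Chad stayed positive, and their adjusted p-values reached at most 0.0949, 0.0920 and 0.0920 (edgeR). The fit that left out E1 called 5 members. A robust edgeR fit called 4 members in E vs C. It called Comp and Kera (adjusted p = 0.0418 and 0.0469) beside Tnmd and Chad, and Fmod was not called (adjusted p = 0.0622, edgeR).

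The next comparison asks how trained mice with a tumor differed from trained mice without one, TE vs E. The high levels of the E mice were not seen in the TE mice. Tnmd was at 0.337, Fmod at 0.326 and Kera at 0.269 times its E level, and these 3 members were called lower (edgeR, adjusted p = 0.0104, 0.0371 and 0.0407), where 17 of all genes, 0.115%, were called lower. For 7 of the 10 members each TE mouse was below each E mouse, where this held for 3.95% of all genes. The number of members at an unadjusted p under 0.05 was 7, against 9.23% of all genes. DESeq2 called Chad, Comp and Cilp2 lower as well (adjusted p = 0.0014, 0.00489 and 0.04365, DESeq2). The median log2 fold change of the members was -1.53, against 0.0029 over all genes. This comparison shares the E mice with the one before, so a high E group shows in both.

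Tnmd measured 2.12, 1.73, 1.86 and 2.17 CPM in the TE mice, a narrow range inside that of the C mice, and its log2 fold change against E was -1.57 ± 0.26 (SE). Fmod measured 26.7, 19.6, 14.5 and 29.5 CPM in TE, below all E mice, with 2 mice above the highest C mouse. Kera measured 2.14, 1.48, 1.25 and 1.69 CPM in TE and fell by 1.90 on the log2 scale. Tnmd was the steadiest of the 3, being called in 15 of 16 fits that left out 1 library, against 7 for Fmod and 5 for Kera. The exception for Tnmd was the fit without TE2, in which 0 members were called. In the robust edgeR fit 2 members were called in TE vs E, Tnmd and Kera, and Fmod had an adjusted p of 0.1104.

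Chad measured 0.869, 0.613, 0.776 and 1.07 CPM in TE, below each E mouse and above each C mouse (TE and C were not compared by a test). Its log2 fold change against E was -2.13 ± 0.47 (SE, adjusted p = 0.0908, edgeR). Comp measured 1.33, 1.09, 1.19 and 1.66 CPM in TE, without overlap with E (log2 fold change -1.50, adjusted p = 0.0982, edgeR), and without E2 this value was -0.99. Cilp2 measured 0.597, 0.585, 0.360 and 1.58 CPM in TE, where TE4 was high and the other mice lay below all C mice, and its log2 fold change was -1.77 ± 0.53 (SE, adjusted p = 0.234, edgeR). TE4 is also the library with the lymph node genes, and without it the value for Cilp2 was -2.36.

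Mkx measured 0.217, 0.0557, 0.333 and 0.321 CPM in TE, all below the E mice, on 2 to 12 counts per library (log2 fold change -1.11 ± 0.54, SE). Thbs4 measured 78.5, 52.8, 59.0 and 71.3 CPM in TE, and TE1 was above E3, so the groups overlapped (log2 fold change -0.54 ± 0.17, SE, adjusted p = 0.267, edgeR). Prg4 measured 11.6, 10.7, 7.96 and 8.85 CPM and Scx 2.47, 2.26, 3.55 and 3.08 CPM in TE. Both overlapped with E, and Scx was again the only member with the opposite sign (log2 fold change 0.31).

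The third question is whether a tumor alone changed these genes, T vs C, which shares its C mice with E vs C. Here 0 of the 10 members were called with edgeR, where 100 of all genes (0.678%) were called. DESeq2 called 0 members as well, and 0 had an unadjusted p under 0.05, where 14.2% of all genes did. The median log2 fold change was 0.31, and T and C overlapped for each of the 10 members, where 4.03% of all genes were higher and 2.83% lower without overlap. The T mice were uneven. Fmod measured 11.4, 39.4, 22.7 and 16.6 CPM and Chad 0.375, 1.55, 0.316 and 0.249 CPM in T1 to T4, so that T2 was the highest of both. Without T2 the log2 fold change of Chad in T vs C went from 0.71 to -0.28, and that of Fmod from 0.37 to -0.05.

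T1 was at the other end. It had the lowest level of all 16 mice for Tnmd (1.10 CPM), Fmod, Kera (0.317 CPM) and Cilp2 (0.173 CPM, 6 counts). The other T mice had 1.71, 2.68 and 1.63 CPM of Tnmd, 2.02, 1.21 and 1.41 CPM of Kera and 1.80, 0.342 and 0.718 CPM of Cilp2. Comp measured 1.27, 1.93, 2.00 and 1.46 CPM in T, higher on average than in C (log2 fold change 0.69, 95% interval -0.06 to 1.45, adjusted p = 0.401, edgeR). Prg4 measured 6.06, 8.01, 27.2 and 13.1 CPM, with T3 the highest of all 16 mice, and Scx 2.28, 2.46, 3.53 and 4.97 CPM, with T4 the highest. Thbs4 ranged from 57.7 to 82.9 CPM and Mkx from 0.144 to 0.4998 CPM in T.

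The last pair, TE vs T, asks whether running changed these genes in mice with a tumor and shares its TE mice with TE vs E. With edgeR 0 members were called, and 0 genes of the whole table (0.0%). With DESeq2 0 members were called, and at an unadjusted p under 0.05 0 members and 5.88% of all genes. The median log2 fold change of the members was -0.07, with 5 positive and 5 negative, and the groups overlapped for all 10, where 1.24% of all genes were higher and 1.34% lower without overlap. Fmod differed by 0.0048 on the log2 scale (95% interval -0.64 to 0.65) and Tnmd by 0.14 (-0.42 to 0.70). These intervals end below the E vs C values of 1.99 ± 0.31 and 1.56 ± 0.26 (SE). The genes were picked with the E vs C values known, so this gap does not show a different response to running. The interaction, which tests such a difference, was not called for Fmod or Tnmd (adjusted p = 0.389 and 0.4204, edgeR). Chad differed by 0.42 in TE vs T (95% interval -0.61 to 1.45), a value that depended on T2. Each TE mouse was above T1, T3 and T4, and without T2 the log2 fold change was 1.41.

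Whether running acted differently with and without a tumor was tested by the interaction of tumor and exercise. Its log2 value was negative for 9 of 10 members, from -2.84 (Chad), -2.19 (Comp) and -1.98 (Fmod) to -0.78 (Thbs4), with Scx at 0.18. Without T2 these values were -1.855 for Chad, -2.10 for Comp and -1.56 for Fmod. With edgeR 0 members were called, as 0 of all genes (0.0%), and the smallest adjusted p of a member was 0.389 (Fmod). Without adjustment 7 of 10 members had a p under 0.05, where 9.21% of all genes did, and DESeq2 called 2 members, Chad and Comp (adjusted p = 0.0286 and 0.0227). The difference in the response to running was thus not called with edgeR.

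Other genes of tendon, not among the 10, had mostly positive but smaller values in E vs C. Of 30 further tendon genes, among them the fibril collagens and the small proteoglycans Dcn, Lum and Ogn, 30 had a positive log2 fold change in E vs C, with a median of 0.50. Of these, 0 were called with edgeR, 23 had an unadjusted p under 0.05, and DESeq2 called 6. Angptl7, a secreted protein of tendon and eye, had the largest value (log2 fold change 1.74, adjusted p = 0.0570, edgeR), followed by Tnc, the stress-responsive matrix protein tenascin-C (1.31, adjusted p = 0.434). E2 was the highest E mouse of both (35.8 CPM of Angptl7 and 7.501 CPM of Tnc), and without it the log2 fold changes were 1.25 and 0.94. Angptl7 was called in 3 of 16 fits that left out 1 library, those without E1, T3 or T4. In TE vs E 29 of the 30 were negative, with a median of -0.49, and 1 was called, Igfbp6 (log2 fold change -0.87, adjusted p = 0.00799, edgeR), an IGF-binding protein expressed by tendon cells that was called in all 16 fits without 1 library. In T vs C the list was split (17 positive, 13 negative, median 0.06), and the largest values were those of Tnc (2.69, adjusted p = 0.104) and Postn (1.88, adjusted p = 0.194, edgeR), a matrix protein of healing tissue. Both values rested on T4. Tnc measured 2.28, 2.13, 3.55 and 38.2 CPM in T1 to T4 and 1.31 to 2.08 CPM in C, and Postn 10.3, 11.4, 24.4 and 181 CPM in T1 to T4 and 11.02 to 23.8 CPM in C. Without T4 the log2 fold change was 0.57 for Tnc and 0.00027 for Postn, and without T2 Tnc was at 3.03 and called (adjusted p = 0.0347, edgeR). In TE vs T 19 of 30 were negative (median -0.09, 0 called, 8 at an unadjusted p under 0.05).

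Genes of cartilage were often too low to test. Of 25 listed, 11 passed the filter, and Matn1, Snorc and Ucma had 0 counts in every library. In E vs C 9 of the 11 were positive (median 0.33), 0 were called with edgeR or DESeq2, and 3 had an unadjusted p under 0.05. Col9a2 and Col11a1, collagens of cartilage fibrils, had the largest values in E vs C (log2 fold change 1.36 and 1.25, adjusted p = 0.351 and 0.265, edgeR), and without E2 Col11a1 was at 0.86. In T vs C the largest values were -0.58 for Runx2 and -0.52 for Col2a1, the main cartilage collagen (adjusted p = 0.687 and 0.854, edgeR). When 1 library was left out these values ranged from -0.85 to -0.33 and, for Col2a1, from -1.44 (without T2) to 0.12 (without C4), so that the sign of Col2a1 was not fixed. In TE vs E 10 of the 11 were negative (median -0.39), and 4 had an unadjusted p under 0.05. With edgeR 0 were called there, while DESeq2 called some. When 1 library was left out, Col11a1 ranged from -2.29 to -1.64 and Col9a2 from -2.49 to -1.64 in TE vs E. Chad, Comp and Cilp2 had counts in every mouse.

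Of 28 genes upstream of tendon genes (TGF-beta and FGF ligands and receptors, SMADs, EGR factors and mechanical sensors), 26 were tested. In E vs C 0 were called with edgeR or DESeq2, 3 had an unadjusted p under 0.05, and the median log2 fold change was 0.10. Egr1, an immediate early factor that acts in tendon, had a value of 0.54 (adjusted p = 0.712) and Fgf4 one of -1.05 (adjusted p = 0.412, edgeR). Without E4 the value of Egr1 was 0.083, and without E2 that of Fgf4 was -1.70. In T vs C Fgf4 was at -1.22 and the stretch-gated channel gene Piezo1 at 0.63 (adjusted p = 0.343 and 0.0996, edgeR), and Piezo1 was called in 1 fit, that without T2. In TE vs E the upstream list had a median of 0.01, with 0 called and 3 at an unadjusted p under 0.05.

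In the leucine-rich family Chad, Fmod and Kera had the largest log2 fold changes in E vs C. Of 13 tested genes of this family, 12 were positive in E vs C, and Chad and Fmod were the 2 called. Dcn, the most abundant of them, measured 251 ± 33.1 FPKM in C and 350 ± 35.8 FPKM in E (log2 fold change 0.44, adjusted p = 0.181, edgeR), and Lum, next to Kera in the genome, had a log2 fold change of 0.30. Prelp, next to Fmod, had 0.45, and Chadl, the relative of Chad, -0.03. All 5 thrombospondin genes were positive in E vs C, positive in T vs C and negative in TE vs T, with 0 called in each (edgeR) and 5, 2 and 1 at an unadjusted p under 0.05. Thbs3 measured 1.16 ± 0.407 FPKM in C, 2.35 ± 0.208 FPKM in E, 2.24 ± 0.956 FPKM in T and 1.75 ± 0.231 FPKM in TE.

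**Figure D3:**
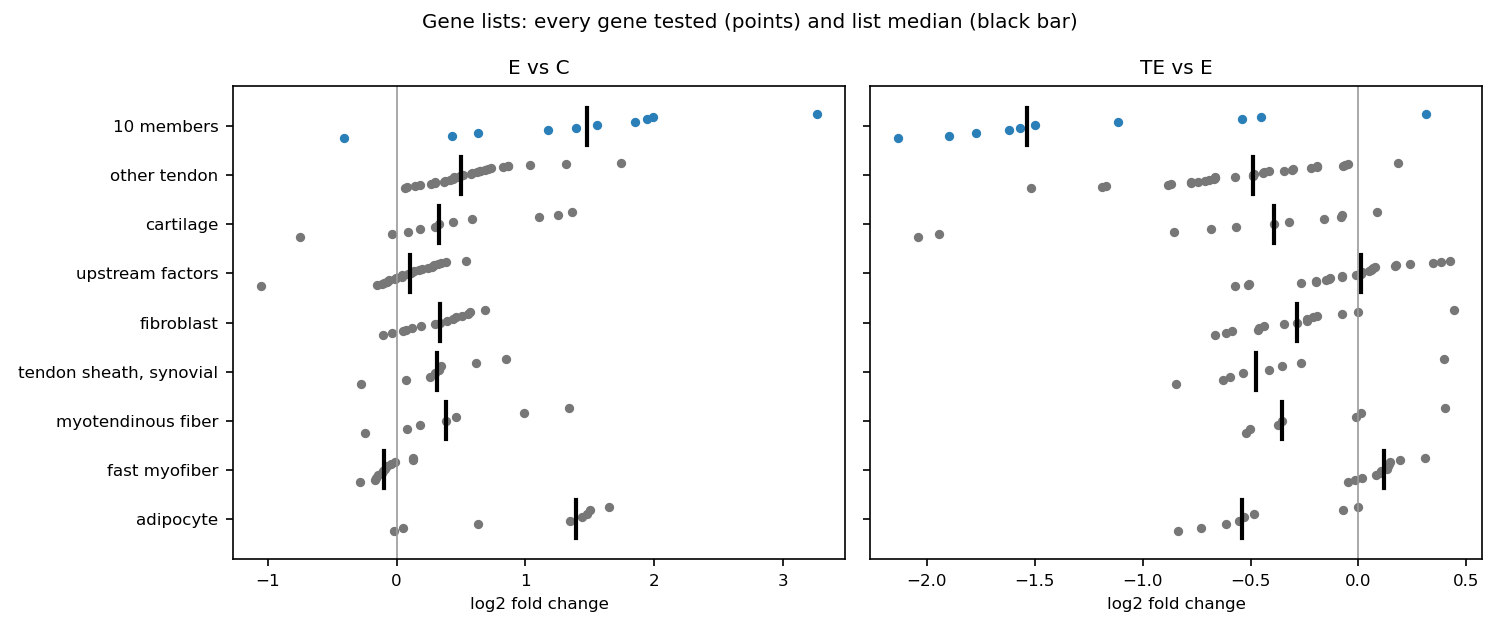
Log2 fold changes (x axis) in E vs C and TE vs E of every tested gene of 9 lists, 1 list per line. Points are genes and black bars list medians, which are 1.47 and -1.53 for the 10 members (blue) and 0.50 and -0.49 for 30 other tendon genes. Fast myofiber genes had medians of -0.10 and 0.12.

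Sums of markers of tissue that lies around muscle fibers were also higher in E than in C. The 30 further tendon genes summed to between 1989 and 2713 CPM in C and between 2840 and 3586 in E, without overlap, and to between 2012 and 2330 in TE. Fibroblast markers summed to 1868 to 2499 CPM in C and 2632 to 3220 in E, and tendon sheath and synovial markers to 164 to 245 in C and 257 to 314 in E. Dcn and Lum are in both the tendon and the fibroblast list, so these sums are not separate observations. Of the 15 fibroblast markers 13 were positive in E vs C and 0 were called, and of 8 tested sheath and synovial markers 7 were positive and 0 were called (edgeR, median 0.34 and 0.31), with 8 and 3 at an unadjusted p under 0.05. Endothelial markers summed to 586 to 747 CPM in C and 778 to 819 in E, also without overlap, and to 578 to 765 in TE, with 6 of 8 positive in E vs C, 0 called and 2 at an unadjusted p under 0.05 (edgeR, median 0.31). Markers of the muscle fibers at the tendon junction summed to 153 to 177 in C and 206 to 218 in E. In T the sums reached 2768 CPM for the further tendon genes and 2485 for fibroblast markers, below all E mice. For sheath and synovial, endothelial and junction markers the T sums reached 266, 888 and 225, within or above the range of E. Fast myofiber markers went the other way, with 10 of 12 negative in E vs C, 0 called, 1 at an unadjusted p under 0.05, and a median of -0.10. The part of tendon, connective tissue and vessel content in the result was not tested. Markers of bone, nerve sheath and slow fibers gave medians of 0.05, -0.08 and -0.17 in E vs C, with 0 called and 0 at an unadjusted p under 0.05 in each, and their sums overlapped between E and C. In TE vs E 14 of 15 fibroblast markers were negative (median -0.28, 0 called, 9 at an unadjusted p under 0.05). In T vs C 1 fibroblast marker and 1 endothelial marker were called, Ly6a (log2 fold change 0.65, adjusted p = 0.0477), a surface protein of connective tissue cells, and Kdr (-0.68, adjusted p = 0.0457, edgeR), a receptor for VEGF. These calls held in 4 and 5 of 16 fits without 1 library.

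Some genes that mark time of day were also called in E vs C. Arntl, the clock factor known as Bmal1, had a log2 fold change of 1.63 and Clock one of 0.64 (adjusted p = 0.0280 and 0.0315, edgeR). Both were named after their values were seen. The calls held in 10 and 8 of 16 fits without 1 library, and were lost for both without E2, without E4 and without any 1 of the C mice (for Clock also without E3 and without TE2). Arntl was also called in T vs C (log2 fold change 1.28, adjusted p = 0.0439, edgeR, in 5 of 16 fits), a comparison in which 0 members were called. Arntl measured 6.12 to 7.70 CPM in C, 13.8 to 27.0 CPM in E, 9.17 to 26.3 CPM in T and 14.6 to 27.3 CPM in TE. In TE vs E the log2 fold change of Arntl was 0.06 ± 0.26 (SE). The part of time of day or of sampling order was not tested.

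The members varied together over the 16 mice. Over the 45 pairs of members Pearson's r of log2 CPM had a median of 0.56, and 25 pairs were above 0.5. The r includes the group differences by which the genes were noticed. After group means were subtracted, the median was 0.36 and 40 of 45 pairs were positive, so members also tended to be high in the same mice within a group. The pairs share genes and are not independent. No share for pairs of other genes is given, so this trait is not shown to be particular to the members. Scx stood apart, with a median r of -0.36 with the other members and 0.10 within groups. The mean of the members, each scaled over the mice, was highest in E2 (1.58 SD) and lowest in T1 (-1.21 SD), and the E mice (0.65 to 1.58) did not overlap with C (-0.70 to -0.34), T (-1.21 to 0.15) or TE (-0.73 to 0.07).

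The genes outside the list most like this mean over the 16 mice were Gdf10 (r = 0.88), a TGF-beta family ligand, Serpinf1 (0.85), the secreted factor PEDF, Shisa3 (0.85), Egfr (0.85), the EGF receptor, and Flna (0.84), an actin cross-linker. Lrrc8d (0.84), Itgbl1 (0.83), Angptl7 (0.83), Trim2 (0.83) and Ccdc3 (0.83) followed. After subtraction of group means the r of these 10 genes was between 0.46 (Trim2) and 0.77 (Shisa3). Serpinf1 was the only one of the 10 called in E vs C (log2 fold change 0.66, adjusted p = 0.0206), and it was also called in TE vs E (-0.77, adjusted p = 0.00425, edgeR). Its call in TE vs E held in 16 of 16 fits without 1 library and that in E vs C in 11, being lost without E2, E4, C1, C3 or C4. Gdf10 measured 1.94 ± 0.659 CPM in C, 5.83 ± 1.38 in E, 1.75 ± 0.816 in T and 1.84 ± 0.916 in TE (mean ± SD, n = 4). Ranked by the r after subtraction, 0 of the 10 remained among the 10 most alike, and Cldn1, a tight junction protein, and C7, a complement protein, were then among the first 10 (r = 0.83 and 0.78).

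**Figure D4:**
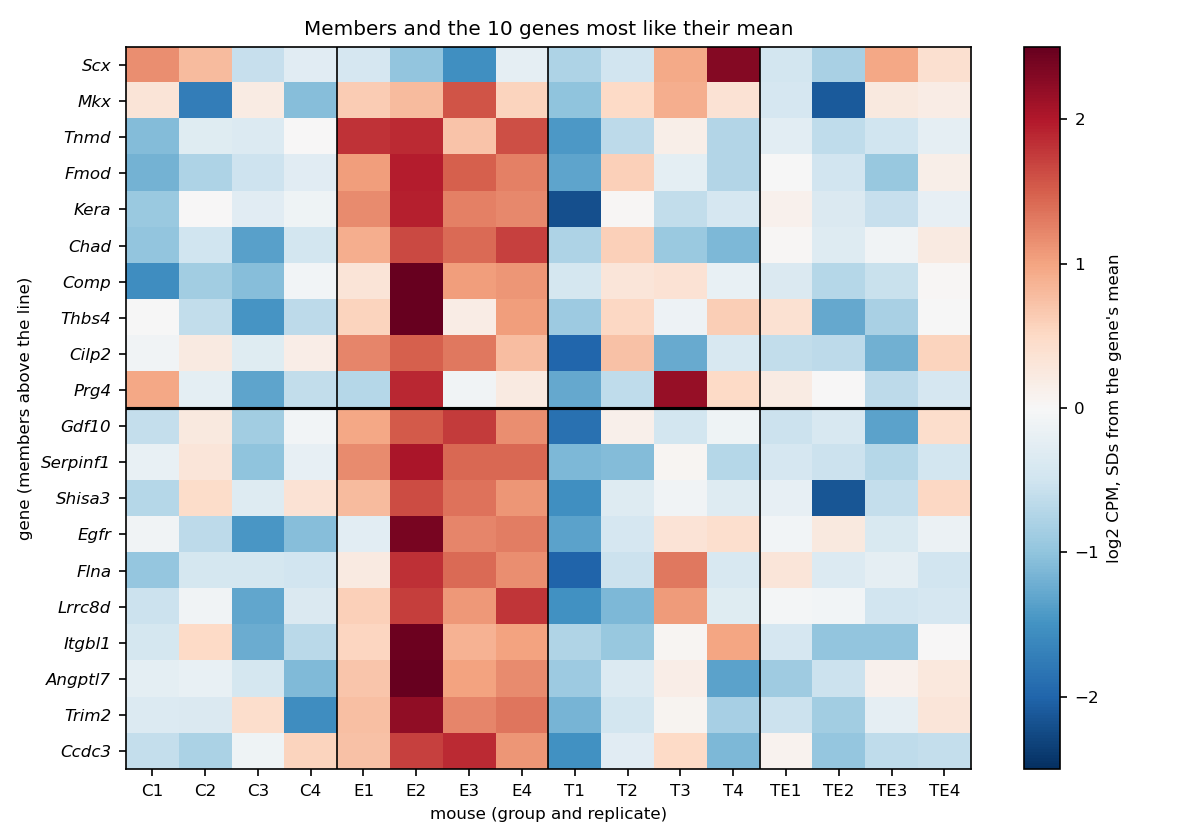
Level of the 10 members (above the line) and of the 10 genes most like their mean (below the line) in each of the 16 mice, as log2 CPM in SDs from each gene's mean over the mice (blue low, red high). The E columns are red for most genes and E2 is the darkest, T1 is blue for most genes, and Scx shows no such pattern.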

How the data were processed

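Gastrocnemius RNA of 16 mice (C, E, T and TE, 4 each, labelled as biological replicates) was sequenced from polyA RNA. The authors trimmed reads with fastp 0.20.1, aligned them to GRCm39 with HISAT2 2.1.0 and counted genes with HTSeq 0.11.2 (names and versions from the submitters' processing notes), and deposited raw counts per gene. The authors also deposited FPKM values, and for 11001 genes these were checked to be the counts over gene length and library size. Annotation release and strand setting: not given in the sources used here. The tables held 0 columns of other samples. Authors' comparisons were not used.

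The 10 members and all gene lists were chosen with earlier results of these data known. Counts were fitted with edgeR 4.0.16 in R 4.3.3 (TMM, filterByExpr, glmQLFit and glmQLFTest, 1 coefficient per group, all 16 libraries, two-sided, Benjamini-Hochberg within a comparison over 14749 genes). The script was tested on simulated counts. Alternatives were DESeq2 1.42.0, limma 3.58.1 on log2(FPKM + 1) and log2(FPKM + 0.1), other scalings, no filter, only the groups compared, a replicate block and each library left out. Levels are TMM-scaled CPM, marker sums CPM of the library total without TMM, and likeness is Pearson's r of log2 CPM with a prior count of 2. Named were all members, listed genes called in any comparison, the 2 genes with the largest change in T vs C and E vs C in each of the tendon, cartilage and upstream lists, and the 10 genes most like the members. Listed genes of red blood cells and neutrophils that were called are given as counts only. Leaving out each library for the named listed genes was added after the data were seen. Same-numbered mice were not pairs: of 24 correlations of their deviations from the group means 5 were above 0.1, in a range of -0.24 to 0.21. No libraries were duplicates (chi-square per degree of freedom of at least 12.7 between mice of a group). The counts do not separate PCR copies from molecules.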

Additional observations from a re-analysis of the deposited data

Results flagged for a closer look

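Of 40 sets of 4 mice (10 genes in 4 groups), 2 held a mouse far from the others of its group, and chance flags about 1 in 20 groups. Chad in T2 measured 1.55 CPM, where the other T mice had 0.249 to 0.375 CPM. Kera in E2 measured 9.06 CPM, where the other E mice had 5.02 to 5.32 CPM.

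For Comp the tumor groups differed from their controls in opposite directions. All T mice were above the C mean (by 0.71 on the log2 scale on average) and all TE mice below the E mean (a difference of -1.32), so that the 2 differences were -2.02 apart. The interaction term for Comp had an adjusted p of 0.420 with edgeR.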

How the results depend on the processing

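Depth limits Mkx, Chad and Cilp2 most, with as few as 2, 7 and 6 counts in a library. No called result changed sign. Counts of calls moved more than folds, and 5 values in a row stand for T against C, TE against T, E against C, TE against E and the interaction.

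At an unadjusted p under 0.05, 2093, 867, 2092, 1361 and 1358 genes passed, with 8, 7 and 7 members in E vs C, TE vs E and the interaction, 10, 8, 23, 18 and 18 other tendon genes, 1, 1, 3, 4 and 2 cartilage genes and 4, 2, 3, 3 and 2 upstream genes. DESeq2 called 421, 7, 279, 178 and 20 genes, 6, 6 and 2 members in E vs C, TE vs E and the interaction, 2, 6, 8 and 1 other tendon genes (T vs C, E vs C, TE vs E, interaction), 2 cartilage genes in TE vs E and 1 upstream gene in T vs C. With DESeq2 size factors in edgeR, 21 genes and 5 members were called in E vs C, and with library totals 62 genes in T vs C. Without a filter on low counts, 174 genes were called in T vs C, 45 in E vs C, 69 in TE vs E and 3 in TE vs T, with 5 members in E vs C and 2, 2 and 4 other tendon genes in T vs C, E vs C and TE vs E. With only the groups compared, 30, 183 and 96 genes were called in T vs C, E vs C and TE vs E, with 6 members, 11 other tendon genes and 1 upstream gene in E vs C and 9 other tendon genes in TE vs E. A test with limma on log2(FPKM + 1) called 27 genes in T vs C and 8 in E vs C, and the median of the members was 0.66 in E vs C, -0.58 in TE vs E and -0.78 for the interaction. On log2(FPKM + 0.1) it called 43, 6 and 20 genes in T vs C, E vs C and TE vs E, with 1 member in TE vs E. The larger pseudocount shrinks the values of low genes by construction. The cause of the other shifts was not tested.

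With the replicate block, 25 genes were called in E vs C and 1 member in TE vs E. Samples with the same number were not shown to be pairs.

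When 1 library was left out, the calls ranged from 16 to 255 genes in T vs C (without C4 and without T2), from 0 to 2 in TE vs T, from 0 to 127 in E vs C (without E4 and without T3), from 18 to 69 in TE vs E (without E3 and without T3) and from 0 to 1 for the interaction. The members called ranged from 0 to 5 in E vs C and from 0 to 4 in TE vs E, the other tendon genes from 0 to 2 in T vs C, 0 to 4 in E vs C and 1 to 5 in TE vs E, and the upstream genes from 0 to 1 in T vs C. The median of the members ranged from 1.31 to 1.57 in E vs C, from -1.62 to -1.29 in TE vs E, from -1.76 to -1.30 for the interaction, from 0.07 to 0.46 in T vs C and from -0.26 to 0.03 in TE vs T. Of the 10 genes most like the members, 4 to 9 were shared with the list without 1 library, and 0 with the list after subtraction of group means. The median SD of the members within groups was 0.25 on log2(FPKM + 1).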
